A study of Mus musculus with 12 samples.

Results

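Fibroblasts held in tunicamycin for 24 h were set against fibroblasts held in it for 12 h, to describe how mature miRNA levels moved late in the treatment. The cells were mouse embryonic fibroblasts of C57BL/6 background, either deficient in the stress mediator ATF6b (ATF6bKO) or wild type (ATF6bWT). The 8 arrays compared are ATF6bKO at 24 h, ATF6bWT at 24 h, ATF6bKO at 12 h and ATF6bWT at 12 h, with 2 arrays in each group, and every one of these cultures received 2 ug/mL tunicamycin. The other 4 of the 12 arrays are untreated cells of both genotypes, and their values are given only beside miRNAs that changed. A 24 h array was paired with the 12 h array of its own genotype and replicate number, which gave 4 pairs. The miRNAs described are the 154 of 611 mouse miRNAs on the array that the scanner software detected on both arrays of at least 1 of the 4 groups. Of the remainder, 384 were detected on none of the 8 arrays and 73 on some of them. The 8 members detected on the fewest arrays, 3 each, had mean log2 levels of -5.03 to -3.84, and the 13 non-members detected on the most arrays, 4 each, had mean log2 levels of -5.63 to -3.74.

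Tunicamycin blocks N-linked glycosylation, so that misfolded glycoproteins accumulate in the endoplasmic reticulum and start the unfolded protein response. ATF6b is a membrane-bound transcription factor of that response, released by cleavage in the Golgi apparatus. A miRNA is a short RNA that guides Argonaute proteins to messenger RNAs through pairing of its seed, bases 2 to 8, and so lowers their translation and stability.

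The labels state that the replicates are independent experiments but do not say which embryos or cell lines stand behind each genotype, and Atf6b itself is not measured on a miRNA array, so the genotype could not be checked here. All 8 arrays came from 1 slide, with replicate 1 and replicate 2 in separate scans. Both arrays of a pair shared a slide row and a scan, but within a scan the 24 h and 12 h arrays always took different slide columns, so time and column cannot be told apart there. The 75th percentile of signal used for scaling was 208 to 582 at 24 h and 246 to 617 at 12 h. Each 24 h array was dimmer than its partner, most of all in ATF6bWT replicate 2, with 257 at 24 h and 477 at 12 h. Between 114 and 189 mouse miRNAs were detected per 24 h array, and between 128 and 178 per 12 h array. Of 20 fibroblast miRNAs on the array, 13 to 17 were detected on each 24 h array and 15 to 17 on each 12 h array, and miR-21, the brightest, carried 24.5% to 28.6% and 24.4% to 27.6% of the mouse signal at those times. No marker of blood or of endothelium and liver was detected on any treated array. Per treated array, 0 to 2 of 8 neural miRNAs were detected, 0 to 1 of 7 muscle miRNAs and 0 to 1 of 16 miRNAs of pluripotent cells. Epithelial miRNAs were detected on ATF6bKO arrays, 4 to 7 of 11 at 24 h and 5 to 7 at 12 h, and rarely on ATF6bWT arrays, 1 to 2 at 24 h and 2 at 12 h. In bulk RNA, fewer cells of a type and less RNA per cell cannot be told apart.

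Called miRNAs are those with a limma adjusted p below 0.05, and 11 were called in the change shared by both genotypes or in 1 genotype's own. RefSeq (GRCm38.p6) holds a mature sequence for 9 of these, shown because the results turn on them, 5′ to 3′ with the seed in capitals.
miR-135a*: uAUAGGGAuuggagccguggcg
miR-1224: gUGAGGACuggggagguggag
miR-30c: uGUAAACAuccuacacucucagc
miR-690: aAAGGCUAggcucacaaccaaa
miR-7a: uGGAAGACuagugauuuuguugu
miR-221: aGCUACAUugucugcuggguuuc
miR-18a: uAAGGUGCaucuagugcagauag
miR-541: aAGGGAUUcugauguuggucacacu
miR-409-3p: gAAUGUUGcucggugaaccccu
The remaining 2 are miR-689 and miR-467b*. The 9 printed miRNAs have 9 different seeds. Among the 124 tested miRNAs with a RefSeq sequence, miR-30a and miR-30e share the seed of miR-30c, and no other shares a seed with any of the 9.

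Per the same annotation, miR-135a* lies at chr9:106154179-106154200 on the plus strand, within the span of Glyctk and D030055H07Rik, and miR-1224 at chr16:20604452-20604472 on the plus strand within Vwa5b2. miR-690 lies at chr16:28599940-28599961 on the minus strand within Fgf12. miR-7a has copies at chr13:58392841-58392863 on the minus strand within Hnrnpk and at chr7:78888295-78888317 on the plus strand outside any other gene of that table. miR-541 and miR-409-3p lie close together on the plus strand within Mirg, at chr12:109742422-109742446 and chr12:109743204-109743225. miR-18a at chr14:115043867-115043889 (plus strand) and miR-221 at chrX:19146307-19146329 (minus strand) are outside other genes in that table. miR-30c has copies at chr1:23291714-23291736 on the plus strand and chr4:120769584-120769606 on the minus strand, the second within Nfyc.

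Most miRNAs moved little between the times. The shared change, the mean of the 4 paired log2 differences of 24 h minus 12 h, had a median of -0.13 over the 154 miRNAs, with quartiles of -0.33 and 0.01. The limma 95% interval of the shared change lay within 0.5 of 0 on the log2 scale for 81 miRNAs and within 1.0 for 136. Centring each array on its median, in place of the 75th percentile, moved the median shared change to -0.02, and the changes below are read against -0.13. By limma, 8 miRNAs (5.19%) were called in the shared change, 3 higher at 24 h (1.95%) and 5 lower (3.25%). Median centring gave 7 calls upward and 6 downward, and quantile normalization gave 3 upward and 4 downward. A further 6 miRNAs had limma adjusted p between 0.05 and 0.06, so the edge of the called set is not sharp. The detection rule bears on some calls. Of the 11 called miRNAs, miR-690, miR-541, miR-409-3p and miR-467b* were detected on both arrays of a group only in ATF6bWT cells at 12 h, and miR-135a* only in ATF6bWT cells at 24 h. Each of these 5 entered the tested set through a group where it was high, so the direction of its ATF6bWT change, and with it part of the shared change, was in part fixed by that entry. With only the miRNAs detected on all 8 arrays, limma called 10 in the shared change, among them 5 of the 8, which were miR-689, miR-1224, miR-7a, miR-221 and miR-18a.

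The 4 paired changes were not independent of the run. Over the 98 miRNAs detected on all 8 arrays, the changes of the ATF6bKO and ATF6bWT pairs of replicate 1 had a Pearson correlation of 0.82, and those of replicate 2 had 0.87. The changes of both ATF6bKO pairs had 0.37, those of both ATF6bWT pairs 0.48, and pairs that shared neither genotype nor replicate number had 0.19 and 0.55. These values describe miRNAs that share arrays. The p-values of the shared change in the 4-pair fit are too small to the extent that pairs of a run move together. When both genotypes were averaged within each run, leaving 2 paired values, limma called 0 miRNAs, with 16 at an unadjusted p below 0.05. In that fit miR-135a*, miR-689, miR-690 and miR-1224 had the smallest limma adjusted p, 0.058 each.

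The 3 miRNAs called higher were the only members past a 2-fold change in the same direction in all 4 pairs (1.95%). miR-135a* is the star strand, the usually less abundant arm, of the miR-135a-1 hairpin. It had log2 scaled levels of -2.93 and -3.86 in ATF6bKO cells and -2.98 and -4.01 in ATF6bWT cells at 24 h. At 12 h it had -4.78 and -5.53 in ATF6bKO cells and -5.37 and -5.71 in ATF6bWT cells, where -5.71 is the floor set for the faintest signals. Every 24 h array was above every 12 h array. Its shared change was 1.90 ± 0.14 (SE, 4 pairs; limma adjusted p = 0.000698), with paired changes of 1.85 and 1.66 in ATF6bKO and 2.39 and 1.70 in ATF6bWT. This miRNA is faint: it was detected on 3 of the 4 arrays at 24 h and on 1 of the 4 at 12 h, and it was tested only because both ATF6bWT arrays at 24 h detected it. It was not detected on either ATF6bKO array at 12 h, where the rise is given as a bound, the mean of the brighter time set against a dim level. The dim level took, for each 12 h array, whichever was higher of its faintest detected miRNA and miR-135a* itself. That bound was 2.11-fold higher at 24 h (limma adjusted p = 0.000193 in ATF6bKO). Only 1 of the 2 ATF6bKO arrays at 24 h detected miR-135a*, so the mean of the brighter time includes an undetected value and the bound is not firm.

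miR-689 had log2 scaled levels of -1.27 and -1.03 in ATF6bKO cells and -2.44 and -2.11 in ATF6bWT cells at 24 h. At 12 h the levels were -2.32 and -2.27 in ATF6bKO cells and -4.08 and -3.86 in ATF6bWT cells. Within each genotype both 24 h arrays were above both 12 h arrays, although the ATF6bWT arrays at 24 h overlapped the ATF6bKO arrays at 12 h. The shared change was 1.42 ± 0.14 (SE, 4 pairs; limma adjusted p = 0.00216), or 2.68-fold. The software's own gene totals gave a smaller shared change for miR-689, 0.32 when scaled here (limma adjusted p = 0.607) and 0.14 in the authors' deposited unscaled table (limma adjusted p = 0.758), and the cause was not tested.

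miR-1224 is a mirtron, a miRNA made from a spliced intron without Drosha cleavage. Its log2 scaled levels were 1.59 and 1.93 in ATF6bKO cells and 1.04 and 1.30 in ATF6bWT cells at 24 h, against 0.54 and 0.92 in ATF6bKO cells and -0.45 and -0.80 in ATF6bWT cells at 12 h. All 4 arrays at 24 h stood above all 4 at 12 h, and the miRNA was detected on all 8. The shared change was 1.41 ± 0.19 (SE, 4 pairs; limma adjusted p = 0.00700), or 2.66-fold, and it was 1.24 from the software's gene totals and 1.06 in the authors' deposited table (limma adjusted p = 0.351 and 0.0873).

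**Figure D1:**
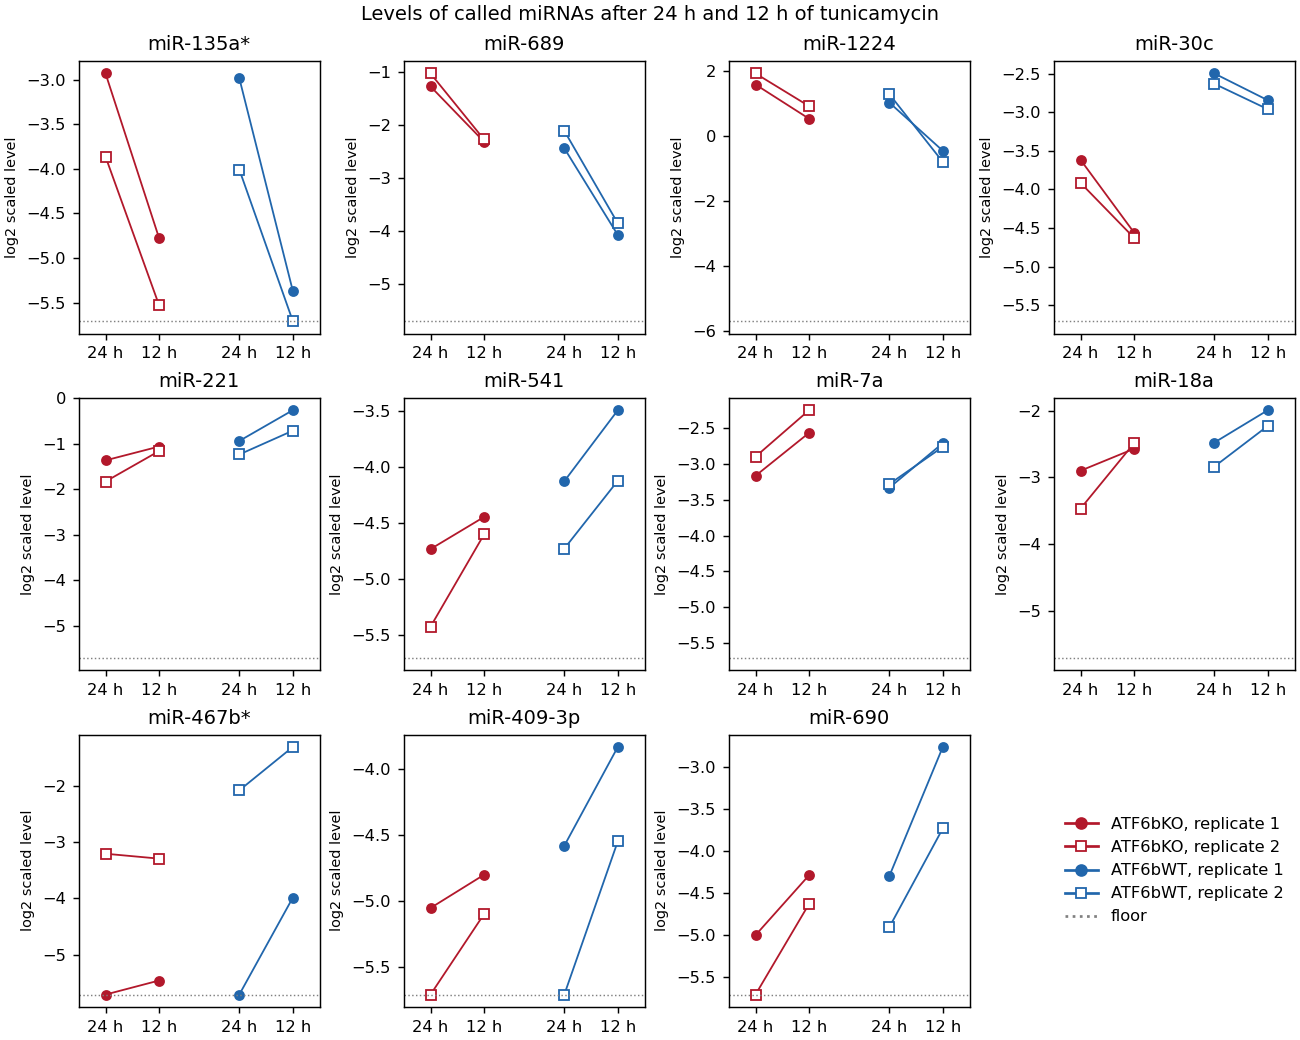
Log2 scaled level (y axis, a separate range in each panel) of the 11 called miRNAs on the 8 tunicamycin arrays. Each line joins the 24 h array (left) and the 12 h array (right) of a pair, red for ATF6bKO and blue for ATF6bWT, filled circles for replicate 1 and open squares for replicate 2, and the dotted line is the floor at -5.71. For miR-135a* and miR-1224 every 24 h point is above every 12 h point, and for miR-7a every 24 h point is below.

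Among the 5 miRNAs called lower, miR-690 had the largest shared change. Its log2 scaled levels were -5.0 and -5.71 in ATF6bKO cells and -4.30 and -4.91 in ATF6bWT cells at 24 h, against -4.29 and -4.63 in ATF6bKO cells and -2.76 and -3.73 in ATF6bWT cells at 12 h. It was lower in all 4 pairs, but the ranges met, since ATF6bWT replicate 1 at 24 h was above ATF6bKO replicate 2 at 12 h. The shared change was -1.13 ± 0.14 (SE, 4 pairs; limma adjusted p = 0.00674). It was detected on 1 of 4 arrays at 24 h and 3 of 4 at 12 h, and it was tested only because both ATF6bWT arrays at 12 h, where it was highest, detected it. On neither ATF6bKO array at 24 h was it detected, and the bound there was at least 1.00-fold lower, so the size of that fall is not known.

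miR-7a, best known from neurons and pancreatic islets and as a repressor of the epidermal growth factor receptor, was detected on all 8 arrays. Its log2 scaled levels were -3.17 and -2.90 in ATF6bKO cells and -3.33 and -3.28 in ATF6bWT cells at 24 h, against -2.57 and -2.25 in ATF6bKO cells and -2.71 and -2.76 in ATF6bWT cells at 12 h. All 4 arrays at 24 h were below all 4 at 12 h, and the paired changes ran from -0.65 to -0.52. The shared change was -0.60 ± 0.09 (SE, 4 pairs; limma adjusted p = 0.0119), 1.51-fold lower. Its size depended on the signal used: the shared change was -1.89 from the software's gene totals and -2.07 in the authors' deposited table, and it was called in neither (limma adjusted p = 0.414 and 0.144).

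miR-221, which represses the cell cycle inhibitor p27, had log2 scaled levels of -1.37 and -1.83 in ATF6bKO cells and -0.94 and -1.24 in ATF6bWT cells at 24 h. At 12 h the levels were -1.06 and -1.16 in ATF6bKO cells and -0.26 and -0.71 in ATF6bWT cells. The groups of 4 overlapped, and the fall appeared within pairs, with a shared change of -0.54 ± 0.11 (SE, 4 pairs; limma adjusted p = 0.0368).

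miR-541, from the imprinted Dlk1-Dio3 region, had log2 scaled levels of -4.73 and -5.43 in ATF6bKO cells and -4.13 and -4.73 in ATF6bWT cells at 24 h, against -4.45 and -4.60 in ATF6bKO cells and -3.49 and -4.12 in ATF6bWT cells at 12 h. It was lower in every pair while the groups overlapped, and its shared change was -0.59 ± 0.12 (SE, 4 pairs; limma adjusted p = 0.0368). It was detected on 2 of 4 arrays at 24 h and on 3 of 4 at 12 h, and it too was tested only through the ATF6bWT arrays at 12 h. miR-18a, from the growth-promoting cluster of miR-17, had log2 scaled levels of -2.90 and -3.47 in ATF6bKO cells and -2.48 and -2.84 in ATF6bWT cells at 24 h, against -2.57 and -2.49 in ATF6bKO cells and -1.99 and -2.23 in ATF6bWT cells at 12 h. Each pair fell, the groups of 4 overlapped, and the shared change of -0.60 ± 0.13 (SE, 4 pairs) had a limma adjusted p of 0.0495, at the edge of the threshold. From the software's gene totals and in the authors' deposited table its shared change was positive, 0.26 and 0.08.

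The set of calls changed when a pair was left out, which also leaves the fit fewer residual degrees of freedom. A lost call therefore does not by itself show that the change came from the omitted pair. Of the 8 miRNAs, miR-135a* alone kept its call whichever pair was left out. It had entered the tested set only through the ATF6bWT arrays at 24 h. Every omission used that same set, so its direction was in part fixed in each, and the kept call is not independent support. Without ATF6bKO replicate 2, miR-135a* was the only call. Without ATF6bWT replicate 2, miR-7a, miR-221, miR-541 and miR-18a lost theirs, and without ATF6bKO replicate 1, miR-1224 and miR-18a did. Without ATF6bWT replicate 1 all 8 remained among 17 calls. Directions held in each omission, with shared changes of 1.18 to 1.55 for miR-1224, 1.31 to 1.55 for miR-689, -1.27 to -0.99 for miR-690 and -0.62 to -0.58 for miR-7a.

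Regardless of pairing, 2 miRNAs (1.3%), miR-135a* and miR-1224, had all 4 arrays at 24 h above all 4 at 12 h, and 3 (1.95%), miR-7a, miR-19a and miR-411*, had all 4 below. miR-411* is named after its values were seen. By pairs, 12 miRNAs (7.79%) were higher at 24 h in all 4 and 43 (27.9%) were lower in all 4.

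Within ATF6bKO cells, limma called 5 miRNAs (3.25%), 4 higher at 24 h (2.6%) and 1 lower (0.649%). The 4 were miR-135a*, miR-689, miR-1224 and miR-30c, and the 1 lower was miR-690. miR-30c, of a family abundant in many differentiated cells, had log2 scaled levels of -3.62 and -3.92 at 24 h, against -4.56 and -4.63 at 12 h, in ATF6bKO cells. Both 24 h arrays were higher, and the change was 0.83 ± 0.20 (SE, 2 pairs; limma adjusted p = 0.0292). In ATF6bWT cells the value for miR-30c was 0.34 ± 0.20 (SE, 2 pairs; limma adjusted p = 0.378). The other family members tested had shared changes of 0.15 for miR-30a, 0.11 for miR-30d and -0.32 for miR-30e, none called.

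Within ATF6bWT cells, 6 miRNAs were called by limma (3.9%), 3 higher (1.95%) and 3 lower (1.95%). The higher ones were again miR-135a*, miR-689 and miR-1224, with changes of 2.04, 1.69 and 1.79, and the lower ones were miR-690, miR-409-3p and miR-467b*. miR-409-3p, also of the Dlk1-Dio3 region, had log2 scaled levels of -4.58 and -5.71 at 24 h, against -3.84 and -4.55 at 12 h, in ATF6bWT cells. The second array at 24 h was at the floor, and the change was -0.95 ± 0.21 (SE, 2 pairs; limma adjusted p = 0.0116). miR-467b*, from the Sfmbt2 intron cluster, had levels of -5.71 and -2.08 at 24 h, against -3.98 and -1.31 at 12 h, in ATF6bWT cells. The replicates of each time lay further apart than the times, and the change was -1.25 ± 0.24 (SE, 2 pairs; limma adjusted p = 0.00384). Both miR-409-3p and miR-467b* were tested only because both ATF6bWT arrays at 12 h detected them, so their lower ATF6bWT level at 24 h was in part fixed by that choice.

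No difference of the change between genotypes was called (0.0%). Of 154 differences, ATF6bKO minus ATF6bWT, 4 had an unadjusted limma p below 0.05. The smallest belonged to miR-467b*, with a difference of 1.17 (95% interval 0.44 to 1.89, limma adjusted p = 0.585), but this miRNA was detected on no treated ATF6bKO array. For miR-1224 the change was 1.03 in ATF6bKO and 1.79 in ATF6bWT cells, a difference of -0.76 (95% interval -1.40 to -0.12, limma adjusted p = 0.979). The next were miR-467g, with a difference of 0.84, and miR-467e*, with 0.75, and neither was detected on a treated ATF6bKO array. With 2 pairs per genotype, these intervals are too wide to show that the genotypes changed alike. This fit does not pair the genotypes by run, so movement shared by a run stays in the error of the difference. To that extent the p-values of the difference can be too large.

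**Figure D2:**
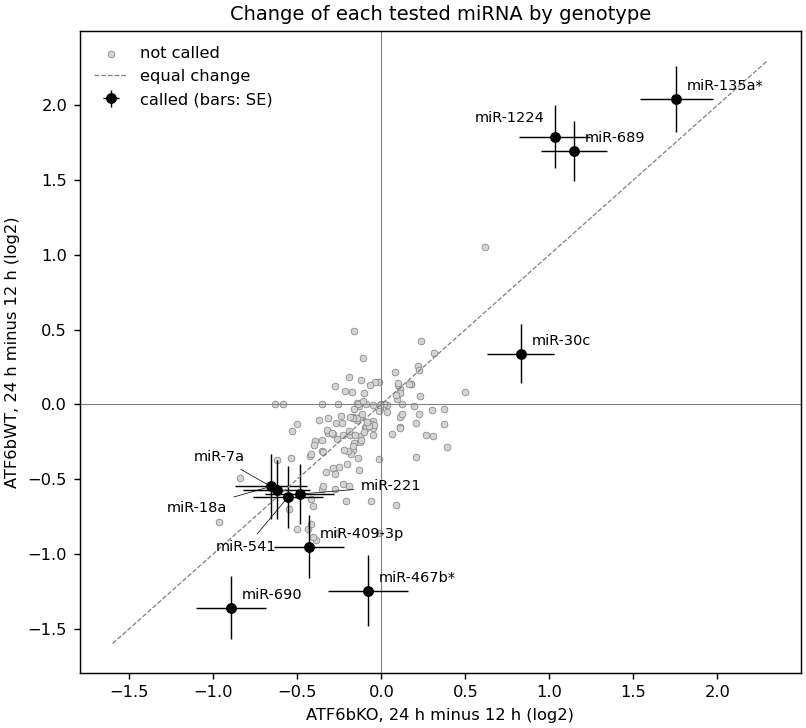
Change of each of the 154 tested miRNAs, 24 h minus 12 h on the log2 scale, in ATF6bKO cells (x axis) and ATF6bWT cells (y axis). Black points are the 11 called miRNAs with bars of 1 SE, grey points are the others, and the dashed line marks equal change. miR-1224, miR-689 and miR-135a* stand at the upper right and miR-690 at the lower left, while miR-467b* had -0.08 in ATF6bKO and -1.25 in ATF6bWT cells.

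Set beside untreated cells, the called miRNAs followed several courses. The untreated arrays lie on another slide, so for steps between untreated and treated cells slide and treatment cannot be told apart. miR-7a was at the floor on both untreated ATF6bKO arrays and had log2 scaled levels of -4.57 and -4.79 on the untreated ATF6bWT arrays, below its levels at both 12 h and 24 h. miR-18a also was lower in untreated cells, with -4.43 and -4.39 in ATF6bKO and -3.02 and -3.45 in ATF6bWT, so that for these 2 miRNAs 12 h held the highest of the 3 sets of levels within each genotype.

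For miR-1224, the place of untreated cells in the order was not the same in both genotypes, a difference that was not tested. Its untreated levels of 0.35 and 0.39 in ATF6bKO cells were below those at 12 h, and its untreated levels of 0.44 and 0.31 in ATF6bWT cells were above those at 12 h, and in both genotypes 24 h was highest. miR-689 had untreated levels of -2.91 and -2.93 in ATF6bKO cells and -3.15 and -3.32 in ATF6bWT cells, the same order. miR-541 had -3.45 and -3.82 in untreated ATF6bKO cells and -3.06 and -3.48 in untreated ATF6bWT cells, and its group means stepped down at 12 h and again at 24 h. miR-690 had -3.78 and -3.66 in untreated ATF6bKO cells, above both treated times, and -3.96 and -4.23 in untreated ATF6bWT cells, below 12 h. miR-135a* had -5.05 and -5.35 in untreated ATF6bKO cells, below 24 h. In untreated ATF6bWT cells it had -3.95 and -5.08, above 12 h and overlapping 24 h (-2.98 and -4.01). miR-30c in untreated ATF6bKO cells had -3.08 and -3.78, above 12 h and overlapping 24 h (-3.62 and -3.92).

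The miR-17 clusters, drivers of proliferation that repress Cdkn1a and Bim, had members that were mostly lower at 24 h. Of 9 tested, with star strands left out, 8 were lower at 24 h in all 4 pairs, against 27.9% of all miRNAs. Of the 9, 1, miR-18a, was called, against 5.19%. The median shared change was -0.25, against -0.13 over all miRNAs. miR-19a had log2 scaled levels of -2.02 on average at 24 h, against -1.52 at 12 h, a shared change of -0.49 ± 0.13 (SE, 4 pairs; limma adjusted p = 0.0739). The brighter members had smaller values, -0.24 for miR-19b, -0.18 for miR-92a and -0.25 for miR-20a, none called. The median of the list was below 0 under each of 6 other scalings and background settings, from -0.38 to -0.14.

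The miRNAs of the Dlk1-Dio3 region, expressed from the maternal chromosome and active in embryonic tissues, had 24 tested members of 58 on the array, with star strands left out. Of these, 14 were lower in all 4 pairs, against 27.9% of all miRNAs. Only 13 of the 24 were detected on all 8 arrays. Members that entered only through a 12 h group, as miR-541 and miR-409-3p did, were in part bound to fall. That entry bears on the count and on the median of the list. In the shared change 1 was called, miR-541 (5.19% of all miRNAs were), and in ATF6bWT cells 1 was called, miR-409-3p (3.9% of all). The median was -0.24. Its abundant members had shared changes of -0.04 for miR-379, -0.13 for miR-127, -0.25 for miR-300 and -0.15 for miR-434-3p. The direction depends on the background: with normexp correction that leaves out spots of bright local background, the list's median was 0.05 and 18 members were higher, while the median of all miRNAs was 0.04.

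The Sfmbt2 cluster, a repetitive rodent array of miR-466, miR-467 and miR-669 genes within an intron of an imprinted gene, varied with the run. Star strands, among them miR-467b*, are left out of this list. Its 10 tested members had median paired changes of -0.45 in ATF6bKO and -1.07 in ATF6bWT cells in replicate 1, but of -0.04 and -0.22 in replicate 2. Scaled levels were also summed over all 35 list members on the array, the untested ones included, each counted at no less than the floor. These sums were 1.07 and 2.64 on the ATF6bKO arrays at 24 h, against 1.32 and 2.68 at 12 h. In ATF6bWT cells the sums were 1.1 and 4.61 at 24 h, against 1.67 and 5.62 at 12 h. In these sums over tested and untested members, the difference between runs exceeded that between times. In the shared change 0 of 10 were called by limma, against 5.19% of all miRNAs. An unadjusted limma p below 0.05 was reached by 4 of the 10, against 44 of all 154. Shared changes were -0.67 for miR-466f-3p, -0.65 for miR-466g, -0.53 for miR-467f and -0.29 for miR-669f. These genes are near copies of each other, so their probes may share signal.

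**Figure D3:**
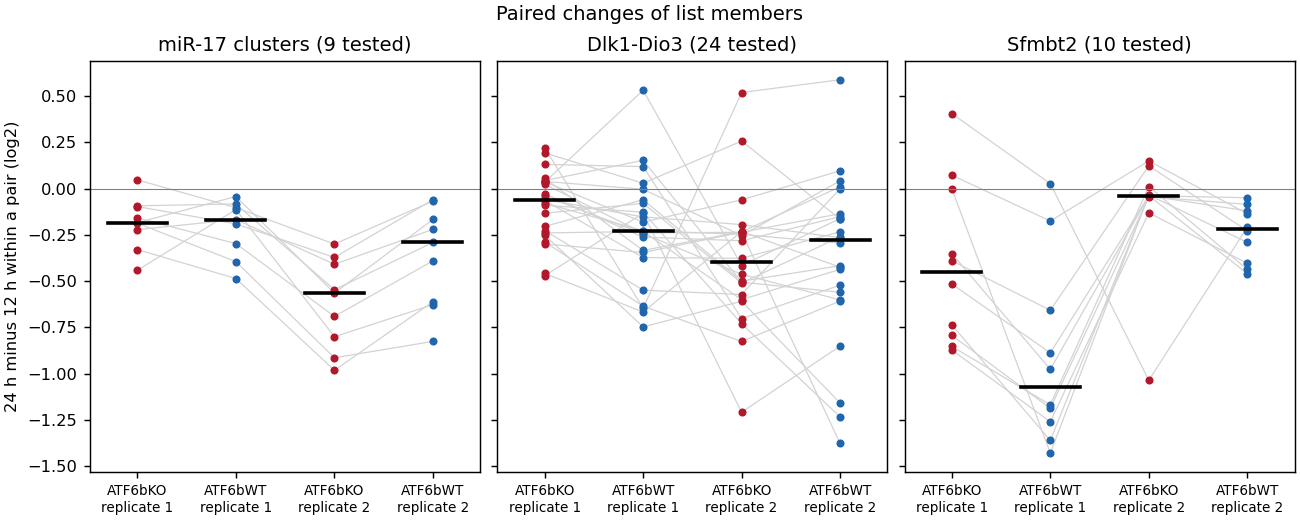
Paired changes, 24 h minus 12 h on the log2 scale, of the tested members of the miR-17 clusters (9), the Dlk1-Dio3 region (24) and the Sfmbt2 cluster (10). Star strands are left out. Each grey line follows a miRNA through the 4 pairs, ordered by run, red points are ATF6bKO, blue points ATF6bWT, and black bars are medians. The medians of the Sfmbt2 cluster are -0.45 and -1.07 in replicate 1 and -0.04 and -0.22 in replicate 2.

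The let-7 family, which represses growth genes such as Hmga2 and Lin28, had small changes. Of all 154 miRNAs, 5.19% were called in the shared change and 44 had an unadjusted limma p below 0.05. All 9 members of the family, with star strands left out, were tested. Of these 9, 0 were called and 1 had an unadjusted limma p below 0.05. Their shared changes ran from 0.02 to 0.33 with a median of 0.07, and 1, let-7e, was higher in all 4 pairs, where 7.79% of all miRNAs were. The median turned to -0.06 when the software's gene totals were used. Changes were 0.07 for let-7a, 0.07 for let-7f and 0.16 for let-7b.

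The miR-34 family, targets of p53 that restrain the cell cycle, was higher at 24 h in all 4 pairs for each of its 3 tested members, where 7.79% of all miRNAs were. The shared changes were 0.12 for miR-34a, 0.23 for miR-34c and 0.24 for miR-34b-5p, with limma adjusted p of 0.410, 0.173 and 0.164. None was called, against 5.19% of all miRNAs. An unadjusted limma p below 0.05 was reached by 2 of the 3, against 44 of all 154. With median centring miR-34b-5p and miR-34c were called, and with the software's gene totals 1 of the 3 was lower. The tested members of the group of miR-15 and miR-16 (4), of the miR-29 family (3) and of the clusters that join miR-23 with miR-24 and miR-27 (5) had median shared changes of -0.13, -0.13 and -0.01. In each, 0 were called by limma and 0 had an unadjusted p below 0.05, against the same 5.19% and 44 of 154.

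Of 17 tested miRNAs that have been linked to the unfolded protein response, 2 were called lower, miR-7a and miR-221, and none higher (3.25% of all miRNAs were called lower and 1.95% higher). Their median shared change was -0.13, as over all miRNAs. The abundant ones had shared changes of -0.25 for miR-125b-5p, -0.13 for miR-29a, -0.01 for miR-23a and 0.03 for miR-27a. Of 17 tested fibroblast miRNAs, 1, miR-221, was called, against 5.19% of all miRNAs, and the median was -0.12. The shared change of miR-21 was -0.01 (95% interval -0.26 to 0.24) and that of miR-22 was 0.15 (95% interval -0.09 to 0.38).

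Epithelial miRNAs had 6 tested members and a median shared change of -0.10. By limma 0 were called in the shared change, in ATF6bKO or in ATF6bWT, against 5.19%, 3.25% and 3.9% of all miRNAs. In these fits 0 had an unadjusted limma p below 0.05, against 44, 19 and 31 of all 154. On the ATF6bWT arrays miR-200c, miR-141 and miR-200b were at the floor at both times, so their changes were measured in ATF6bKO cells alone, -0.35 for miR-141 and -0.26 for miR-200b, neither called. The shared changes, -0.18 for miR-141, -0.13 for miR-200b and -0.002 for miR-200c, average the ATF6bKO changes with the 0 of the floored ATF6bWT pairs. The direction of the list depends on the background. With normexp correction that leaves out spots of bright local background, its median was 0.11 and 6 members were higher, while the median of all miRNAs was 0.04. The muscle miRNA miR-206 had a shared change of 0.09 and the neural miRNA miR-129-3p of -0.64, neither called. Of 16 tested star strands, 1 was called higher in the shared change, miR-135a*, and 0 lower, where 1.95% of all miRNAs were called higher and 3.25% lower. miR-140*, the most abundant of them, had -0.46 ± 0.11 (SE, 4 pairs; limma adjusted p = 0.0525).

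**Figure D4:**
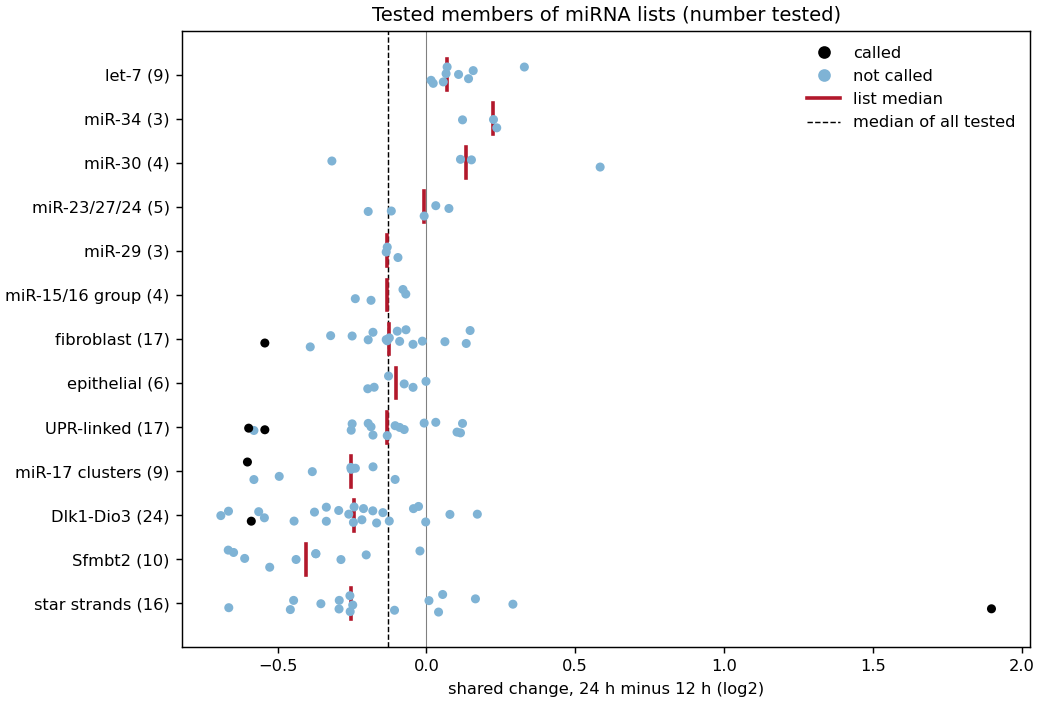
Shared change, 24 h minus 12 h on the log2 scale (x axis), of the tested members of 13 miRNA lists, with the number tested after each name. Black points are called miRNAs, blue points are not, red bars are list medians and the dashed line is the median of all 154 miRNAs at -0.13. The list medians of the miR-17 clusters, the Dlk1-Dio3 region and the Sfmbt2 cluster are -0.25, -0.24 and -0.41, and miR-135a* is alone beyond 1.5.

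Base composition differed among the called miRNAs, since G and C made up 66.7% of miR-1224, 59.1% of miR-135a* and 34.8% of miR-7a, with a median of 45.5% over the 124 tested miRNAs (80.5%) that have a RefSeq sequence. Across those miRNAs, which share the 8 arrays, GC content and shared change had a Pearson correlation of 0.18 and a Spearman correlation of 0.04. Mean level and shared change had a Spearman correlation of 0.25 across all 154.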

How the data were processed

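Per the labels, total RNA was extracted with the mirVana kit, and 100 ng of it was labelled with Cy3 for 1-colour Agilent miRNA arrays. The deposited scanner tables give linear spot intensity, and the submitters' processing notes name Agilent Feature Extraction 10.7.1.1 as the software. A deposited table of log2 values was found to equal the unscaled log2 total gene signal of that software, with no value for undetected miRNAs. The array's build was not given in the sources used here, and coordinates are those of RefSeq.

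From the background-subtracted intensity, spots of a probe were averaged without outlier flags and probes of a miRNA summed. Sums were scaled to the array's 75th percentile among 93 miRNAs that all 12 arrays detected, floored at 0.0191 of it (log2 -5.71), and put on a log2 scale. Paired changes were tested with limma 3.58.1 in R 4.3.3 (lmFit, eBayes) with the pair as a block: 3 residual and 3.72 prior degrees of freedom for the shared change, and 2 and 12.0 for the genotype fit. P-values were adjusted by Benjamini-Hochberg over all 154 miRNAs, with a threshold of 0.05. A miRNA at the floor on arrays of both times shows no spread there, so its error can be too small. The number of arrays limits the precision, and 2 arrays a group leave outliers untested. On simulated data of independent pairs, the shared fit over 154 miRNAs called 97% of changes of 1 on the log2 scale, with 2.31% of its calls false. The simulated errors were drawn afresh for each array, without a run effect, a floor or a spread kept by each miRNA. These rates therefore do not describe the real arrays, whose paired changes moved with the run.

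The replicate number marks a shared scan, and same-numbered treated arrays deviated together: deviations of the 24 h and 12 h groups correlated at 0.86 in ATF6bKO and 0.88 in ATF6bWT cells. The normexp alternative used median spot signals, since the tables analysed here hold no mean signals. The fit averaging genotypes within a run and the normexp fit without spots of local background above 1000 were added after seeing the data. The miRNAs and lists described were chosen with earlier results of these data known. Apart from the list of star strands, the lists leave out nearly all star strands. Thus miR-17*, miR-411* and miR-467b* are not counted in the lists of their clusters. The exceptions are miR-30c-2* in the list linked to the unfolded protein response and miR-34c* in the miR-34 list, and neither was tested. Named miRNAs are those called, those with the smallest p (10 in the shared fit, 5 in each other), the 10 brightest, the 4 brightest of each list, and those past 2-fold in all pairs. 0 columns of other samples were left out.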

Additional observations from a re-analysis of the deposited data

How the results depend on the processing

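In place of the 8 calls in the shared change, there were 4 with no replicate block, on the treated arrays or on all 12 arrays, and in both fits they were miR-135a*, miR-689, miR-1224 and miR-7a. There were 16, with all 8 among them, with the run as the block, and 0 (16 at an unadjusted limma p below 0.05) with genotypes averaged within a run. Median centring gave 13. Normexp gave 0 (1 unadjusted), and normexp without spots of bright local background gave 3. The software's gene totals gave 0 (12 unadjusted), the deposited values 0 (22 unadjusted), no detection filter 3 (of the 8, miR-7a) and a floor 4 times higher 2. Leaving out a pair gave 1 to 17. In place of the 5 calls in ATF6bKO there were 0 with no replicate block (12 unadjusted), 1 on all 12 arrays, 3 with the run as the block (all among the 5) or with miRNAs detected on all 8 arrays (2 of the 5), 2 in the deposited values (miR-466f-3p and miR-7a, none of the 5), 1 with normexp without bright spots, and 0 with each of the percentile over all miRNAs, quantile normalization, median centring, normexp, gene totals, no filter and the higher floor. Leaving out a pair gave 0 to 7. In place of the 6 calls in ATF6bWT there were 2 with no replicate block, on 8 or 12 arrays, 3 with median centring, 2 with normexp without bright spots, 1 with gene totals (miR-218, none of the 6), and 0 with each of quantile normalization, normexp, the deposited values, no filter and the higher floor. Leaving out a pair gave 0 to 15, a fit in which that genotype keeps a lone pair assumed to vary like the other. The difference between genotypes had 1 call with gene totals and 0 to 1 when a pair was left out. Signs turned for the shared change of miR-18a with gene totals (0.26) and deposited values (0.082), of miR-541 with normexp without bright spots (0.041) and of miR-135a* with normexp (-0.33). In ATF6bWT they turned with normexp for miR-135a* (-1.08) and miR-689 (-0.44), with deposited values for miR-689 (-0.043) and with normexp without bright spots for miR-409-3p (0.00562). The normexp fit was distorted on 1 array, ATF6bWT at 12 h replicate 1, where 9 spots with a local background above 1000 put the fitted background mean at -488, against 3.59 to 37.7 on the other arrays. The cause of the other changes was not tested. Faint miRNAs limit the comparison, since 98 of 154 were detected on all 8 arrays.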
